A study of Mus musculus with 6 samples.

Results

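The Toll-like receptor genes Tlr1, Tlr2, Tlr3, Tlr4, Tlr7, Tlr9 and Tlr13, the co-receptor genes Cd14 and Ly86 and the adaptor gene Myd88 were looked up by symbol in a table of raw RNA-seq counts from mouse. All 10 genes were found among the 55573 genes of the table, and 9 of them were among the 12275 genes tested, which reached 1 CPM (a count scaled to library size) in 2 or more of the 6 libraries. Tlr9 did not reach it.

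Toll-like receptors are innate immune receptors that recognize molecules of microbes and of damaged cells. Those at the cell surface bind bacterial lipids and lipopeptides, those in endosomes bind nucleic acids, and nearly all signal through Myd88 to NF-kappaB and to interferon regulatory factors. In the brain they are best known from microglia, the resident macrophages, which also remove dying adult-born neurons.

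The libraries were made from cells of the olfactory bulb sorted for the fluorescence of the Ca2+ sensor Twitch-2B, after lentivirus had been injected into the rostral migratory stream of male C57BL/6 mice that were 3 months old. All groups carried Twitch-2B, the control with mCherry, the Kv1.2 group with that voltage-gated K+ channel and the Kir2.1 group with that inwardly rectifying K+ channel, and the study asked which transcripts change when the activity of adult-born neurons is dampened. Cells were taken 9 days after injection, and each of the 2 libraries of a group pooled the cells of 2 mice, so that p-values measure the spread between pools. The virus was built on the FUGW backbone, whose ubiquitin C promoter is active in most cell types.

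The libraries held 8871595 to 13632970 counts. The labels call the cells adult newborn neurons, but a list of 20 neuroblast and neuron markers took 0.111% and 0.163% of the counts in the control and 0.00144% to 0.0114% in the 4 channel libraries, where Dcx, the marker of migrating neuroblasts, had 0, 3, 0 and 0 counts against 831 and 161 in the control. Lists of astrocyte and oligodendrocyte lineage markers were lower there too, with 0.0220% to 0.0370% against 0.0994% and 0.288%, and 0.00309% to 0.0140% against 0.0267% and 0.0607%. Single markers fell less. Slc1a3 made up most astrocyte counts of the channel libraries, with 171.7 to 342.8 CPM against 339.5 and 443.2 CPM in the control. Cnp of the oligodendrocyte list had 7.25 to 32.7 CPM against 19.8 and 35.3 CPM. A list of 20 microglia markers took 6.99% and 0.820% in the control (95% Wilson interval of the lower share 0.814% to 0.826%), 10.9% and 10.6% in Kv1.2 and 6.95% and 10.9% in Kir2.1 libraries, and all 20 were at or above 1 CPM in every library. Control replicate 2 thus stood apart, with the lowest microglia share. Kir2.1 replicate 1 stood apart by 8 markers of border-associated macrophages, which took 0.240% of its counts against 0.00303% to 0.0286% elsewhere. Kcna2, which encodes Kv1.2, was at −4.53 (standard error, SE, 2.84) on the log2 scale for Kv1.2 libraries relative to control, and Kcnj2, which encodes Kir2.1, was at 0.82 (SE 2.38) for Kir2.1 libraries. These counts are no check of the labels for Kv1.2, whose insert was made from human cDNA and need not be counted on the mouse gene. The Kir2.1 insert was made from mouse cDNA and can be counted on Kcnj2, whose fold was smaller than its SE. The study's qPCR of both channel genes in sorted cells was not analysed here. Group names are those of the labels. In such bulk samples, fewer cells of a type and less RNA per cell cannot be told apart.

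Tlr2, Cd14 and Ly86 were the members whose CPM lay above both control libraries in all 4 channel libraries. These were 3 of 9 members tested, against 8.52% of all genes tested and 4 of 20 microglia markers. For Ly86 the margin was small, with 2941 CPM in Kir2.1 replicate 1 and 2892 CPM in control replicate 1. None of the 9 members tested passed an adjusted p of 0.05 in the Kv1.2 or Kir2.1 group, in both groups together or between the channel groups. Tlr2 had the largest fold, 4.66 on the log2 scale over both channel groups (SE 1.61), and its channel libraries lay above both controls relative to the microglia markers as well. The summed counts of the members, of which Ly86 was the main part, were 49.4 to 66.4 per 1000 microglia marker counts in all 6 libraries, with no separation of the groups.

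Tlr2 recognizes bacterial lipopeptides at the cell surface as a dimer with Tlr1 or Tlr6. The gene lies on chromosome 3 of GRCm38 (83836272 to 83841767, minus strand, 3 annotated exons). Sequence is shown for Tlr2, Tlr1 and Ly86, because their levels took different courses across the libraries: Tlr2 was low in both controls, Tlr1 was split between the Kir2.1 replicates, and Ly86 went with the microglia markers. Each stretch is the part of the RefSeq promoter window (GRCm38.p6, 250 bases before the start of the transcript) that also lies before the start annotated by GENCODE, written 5′ to 3′ on the strand of the gene, and capitals mark a motif match.
Tlr2 (chr3:83841768-83841858, minus strand): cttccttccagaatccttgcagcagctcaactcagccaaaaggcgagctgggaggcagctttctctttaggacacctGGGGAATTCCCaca
Tlr1 (chr5:64933564-64933808, minus strand): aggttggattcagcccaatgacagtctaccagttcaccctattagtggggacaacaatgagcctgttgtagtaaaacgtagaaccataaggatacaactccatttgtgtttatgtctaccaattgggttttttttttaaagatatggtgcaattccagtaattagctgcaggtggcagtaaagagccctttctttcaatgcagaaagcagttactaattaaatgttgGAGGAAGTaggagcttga
Ly86 (chr13:37345095-37345207, plus strand): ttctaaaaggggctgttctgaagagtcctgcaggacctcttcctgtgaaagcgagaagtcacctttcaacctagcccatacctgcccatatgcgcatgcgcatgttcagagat
The capitals in Tlr2 are overlapping matches to the NF-kappaB motif, with offsets of −173 and −172 bases from the RefSeq start, and those in Tlr1 are the PU.1 motif GAGGAAGT at an offset of −23. PU.1 is a transcription factor that defines macrophages and microglia.

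Windows were found for 7 of the 10 members (8 windows), and both strands were searched. The NF-kappaB motif was in the windows of Tlr2 and Tlr3, against 7.25% of all 32851 promoter windows, and the PU.1 motif was in 1 of the 2 windows of Tlr1 (the one shown), against 2.44%. The other window of Tlr1 held none of the motifs. The AP-1 motif TGANTCA was in the window of Tlr9 (6.75% of all windows), and the interferon-stimulated response motif (GAAA and GAAA with 2 bases between them) was in that of Myd88 (2.98%). Those of Ly86 and Tlr13 held none of the 4 motifs in these letters. These are matches of letters and not measured binding sites.

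Tlr2 had 5.97 and 0.239 CPM in control, 127.9 and 52.1 CPM in Kv1.2 and 37.9 and 100.8 CPM in Kir2.1 libraries. The lowest channel library was thus above the highest control, and the control replicates themselves differed 25.0-fold. In counts, control replicate 2 rested on 2 reads and control replicate 1 on 60, against 418 to 1596 in the channel libraries. By edgeR's quasi-likelihood test, the log2 fold change was 4.85 (SE 1.69, unadjusted p = 0.0236, adjusted p = 0.394) in the Kv1.2 group and 4.47 (SE 1.66, unadjusted p = 0.0304, adjusted p = 0.521) in the Kir2.1 group. Over both channel groups the unadjusted p was 0.0229 and the adjusted p 0.274 by the same test, which misses the threshold. DESeq2 gave adjusted p-values of 0.0136 in the Kv1.2 group, 0.0313 in the Kir2.1 group and 0.00443 over both, where it called 10.5%, 7.85% and 10% of all genes. Since control replicate 2 was under 1 CPM, Tlr2 met the count minimum of 2 libraries only with channel libraries, where it was high. The fold over both groups was 3.64 on the log2 scale without control replicate 2 and 8.20 without control replicate 1, whose removal leaves a control of 2 reads.

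Tlr1, the partner of Tlr2 for triacylated lipopeptides, lies on chromosome 5 (64924679 to 64933563, minus strand, 8 annotated exons) beside its paralog Tlr6. It had 7.17 and 10.8 CPM in control, 46.6 and 97.9 CPM in Kv1.2 and 0.0906 and 30.2 CPM in Kir2.1 libraries. Both Kv1.2 libraries lay above the controls, while the Kir2.1 libraries lay on either side of them, and Kir2.1 replicate 1 held 1 read. Relative to control, the log2 fold was 3.01 (SE 2.13) for Kv1.2 and 0.76 (SE 1.99) for Kir2.1, and neither passed the test (edgeR quasi-likelihood adjusted p = 0.618 and 0.956). Of the 75-base windows of the longest Tlr1 transcript, 11.5% occur in Tlr6 as well, or 8.85% of 100-base windows (the sources differ in read length), and since the authors removed reads that mapped to several places, counts of both genes leave out such reads.

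Tlr4 is the receptor for lipopolysaccharide, together with the secreted protein of Ly96, and lies on chromosome 4 (66827584 to 66930284, plus strand, 10 annotated exons). It had 29.8 and 0.120 CPM in control, 61.0 and 6.10 CPM in Kv1.2 and 55.8 and 31.6 CPM in Kir2.1 libraries. Control replicate 2, with 1 read, and Kv1.2 replicate 2 were the low libraries, so the Kv1.2 group overlapped the control and the Kir2.1 group did not. Relative to control, the log2 fold was 1.17 (SE 2.12) for Kv1.2 and 1.55 (SE 2.14) for Kir2.1, both smaller than their errors. The Kir2.1 fold was 0.50 without control replicate 2 and 8.29 without control replicate 1, and the Kv1.2 fold was 0.083 and 7.90 without the same libraries and −1.29 without Kv1.2 replicate 1.

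Cd14 encodes a surface protein that hands lipopolysaccharide to Tlr4 and also serves Tlr2. The gene lies on chromosome 18 (36725067 to 36726798, minus strand, 3 annotated exons). It had 269.7 and 38.7 CPM in control, 688.2 and 437.7 CPM in Kv1.2 and 428.1 and 872.3 CPM in Kir2.1 libraries. All channel libraries lay above both controls, and the controls differed 6.98-fold. Relative to control, the log2 fold was 1.87 (SE 0.95) for Kv1.2 and 2.08 (SE 0.95) for Kir2.1, with edgeR quasi-likelihood adjusted p-values of 0.463 and 0.534. Over both groups it was 1.97 (SE 0.88), 1.09 without control replicate 2 and 3.87 without control replicate 1.

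Ly86 encodes MD-1, the secreted partner of Cd180, a receptor related to Tlr4. It lies on chromosome 13 (37345208 to 37419036, plus strand, 6 annotated exons). Per length of transcript it was the most abundant member, with 797.2 and 128.3 FPKM (fragments scaled to transcript length and library size) in control, 1524 and 1343 FPKM in Kv1.2 and 810.8 and 1161 FPKM in Kir2.1 libraries. Control replicate 1 and Kir2.1 replicate 1 were nearly level, at 2892 and 2941 CPM, while control replicate 2 had 466.3 CPM. Relative to control, the log2 fold was 1.63 (SE 0.84, edgeR quasi-likelihood adjusted p = 0.468) for Kv1.2 and 1.09 (SE 0.83, adjusted p = 0.704) for Kir2.1. Over both groups it was 1.36 (SE 0.76), but 0.50 without control replicate 2 and 3.11 without control replicate 1. Without a count minimum, edgeR's quasi-likelihood test called Ly86 in the Kv1.2 group (adjusted p = 0.000453) and over both groups (adjusted p = 0.00165). In that setting 138 and 263 of 39646 genes were called. The SE of Ly86 in the Kv1.2 group was 0.36 there, against 0.84 in the main fit, while the controls themselves differed 6.20-fold.

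**Figure D1:**
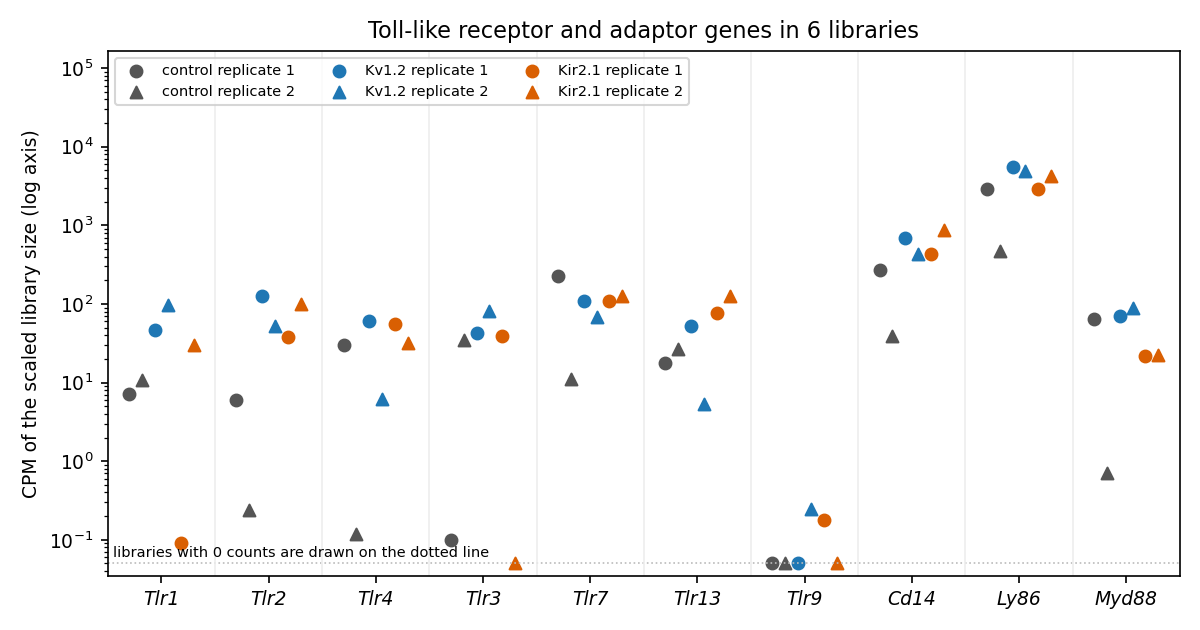
CPM of the TMM-scaled library size (log axis) for each of the 10 genes, with 1 point per library, coloured by group and shaped by replicate. Tlr2, Cd14 and Ly86 have all 4 channel libraries above both controls, and Tlr9 stays below 1 CPM in every library.

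Among the endosomal receptors, Tlr7 binds single-stranded RNA. It lies on chromosome X (167304929 to 167330558, minus strand, 15 annotated exons). Its CPM was 224.4 and 11.01 in control, 109.4 and 68.9 in Kv1.2 and 108.6 and 127.8 in Kir2.1 libraries. The controls enclosed all channel libraries, control replicate 1 being the highest of the 6 and control replicate 2 the lowest. Relative to control, the log2 fold was −0.40 (SE 1.22) for Kv1.2 and 0.0056 (SE 1.22) for Kir2.1.

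Tlr13, a mouse receptor for bacterial ribosomal RNA, lies on chromosome X (106143204 to 106160493, plus strand, 5 annotated exons). It had 17.6 and 27.1 CPM in control, 53.0 and 5.29 CPM in Kv1.2 and 76.1 and 127.1 CPM in Kir2.1 libraries. Only the Kir2.1 group lay above both controls, with a log2 fold change of 2.18 (SE 1.30) and an adjusted p of 0.607 by edgeR's quasi-likelihood test, against 0.38 (SE 1.25) in the Kv1.2 group. Between the channel groups, Kir2.1 over Kv1.2, the log2 fold change was 1.80 (SE 1.28, adjusted p = 0.834 by the same test), 0.94 without Kv1.2 replicate 2 and 4.26 without Kv1.2 replicate 1. With microglia scaling the Kir2.1 fold over control turned to −0.34, and per 1000 microglia marker counts control replicate 2 (2.92) lay above both Kir2.1 libraries (1.36 and 1.13).

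Tlr3, the receptor for double-stranded RNA, signals through Ticam1 and not Myd88, and lies on chromosome 8 (45395665 to 45411080, minus strand, 24 annotated exons). It was present in some libraries and all but missing in others of the same group: 0.0996 and 34.4 CPM in control, 43.1 and 80.7 CPM in Kv1.2 and 39.0 and 0 CPM in Kir2.1 libraries. The 0 counts of Kir2.1 replicate 2 allow up to 0.265 CPM of the unscaled library total, for counting error only. Relative to control, the log2 fold was 1.85 (SE 2.81) for Kv1.2 and 0.18 (SE 2.72) for Kir2.1. The Kv1.2 fold was 0.75 without control replicate 1, 9.05 without control replicate 2 and −1.76 with microglia scaling, and the Kir2.1 fold was −10.6 without Kir2.1 replicate 1 and 7.43 without control replicate 2. Its exons share 381 bases with the antisense gene Gm45542, and without strand the reads of the pair cannot be told apart there.

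Tlr9, the receptor for unmethylated CpG DNA, lies on chromosome 9 (106222598 to 106226883, plus strand, 2 annotated exons). It had 0, 0, 0, 3, 2 and 0 counts, in the order control, Kv1.2 and Kir2.1 with replicate 1 first, and was not detectable at this depth beyond those reads. In the 4 libraries with 0 counts, that count allows 0.220 to 0.317 CPM of the unscaled totals.

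Myd88, the adaptor shared by these receptors other than Tlr3, lies on chromosome 9 (119335934 to 119341411, minus strand, 11 annotated exons). It had 64.0 and 0.718 CPM in control, 70.2 and 89.0 CPM in Kv1.2 and 22.0 and 22.3 CPM in Kir2.1 libraries. The Kv1.2 libraries were the highest and the Kir2.1 libraries lay between the controls. Its log2 fold was 1.30 (SE 1.69) for Kv1.2 and −0.55 (SE 1.67) for Kir2.1 relative to control, and −1.84 (SE 1.72) for Kir2.1 relative to Kv1.2. Without control replicate 2 the Kv1.2 fold was 0.23 and the Kir2.1 fold −1.60, and without control replicate 1 they were 6.67 and 4.83. Its exons share 290 bases with Acaa1a on the other strand, so some of these reads may belong to that gene.

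Read together, 0 of 9 members passed an adjusted p of 0.05 by edgeR's quasi-likelihood test in the Kv1.2 group, in the Kir2.1 group and between the channel groups, as did 0% of all genes tested in each, and 0 of 9 passed over both groups, where 0.0244% of all genes did. At an unadjusted p under 0.05, Tlr2 alone was higher in each comparison with the control, 1 of 9 members against 3.23% of all genes for Kv1.2, 3.25% for Kir2.1 and 2.85% over both groups. At this p 0 of 9 were lower, against 8.81%, 6.15% and 10.5% of all genes, and between the channel groups 0 of 9 were higher or lower, against 4.02% and 2.05%. DESeq2 called Tlr2 in all 3 comparisons, against 10.5%, 7.85% and 10% of all genes called by it, and the likelihood ratio test called 0 members, against 5.89%, 1.83% and 8.94% of all genes. Between the channel groups both called 0 members, against 5.11% and 0.554% of all genes. The folds of 8 of 9 members were above 0 in the Kv1.2 group, against 47.5% of all genes, 8 of 9 in the Kir2.1 group, against 50.8%, and 8 of 9 over both, against 45.7%. With libraries scaled to the microglia markers, 3 of 9 were above 0 over both, against 15.1% of all genes. With TMM scaling, the median log2 fold change of the 9 was 1.63, 1.09 and 1.36 in these comparisons, and that of all genes tested was −0.12, 0.04 and −0.19. These comparisons share the control libraries. Scaling to the microglia markers moved the median of all genes to −2.55 over both groups, with Ly86 at −0.03 and with Tlr1, Tlr3, Tlr7, Tlr13 and Myd88 below 0 as well.

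The libraries were also compared one by one, without a model. In the Kv1.2 group, 6 of 9 members (Tlr1, Tlr2, Tlr3, Cd14, Ly86 and Myd88) lay above both controls in both libraries, against 19.3% of all genes tested. In the Kir2.1 group these were 5 of 9 (Tlr2, Tlr4, Tlr13, Cd14 and Ly86), against 19.9%, and over all 4 channel libraries 3 of 9, against 8.52%. No member lay below both controls in both libraries of the Kv1.2 group, against 24.9% of all genes, of the Kir2.1 group, against 22.5%, or in all 4, against 13.8%. Of the microglia list, 13 of 20, 6 of 20 and 4 of 20 lay above both controls in the same comparisons, and 0 of 20 below.

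**Figure D2:**
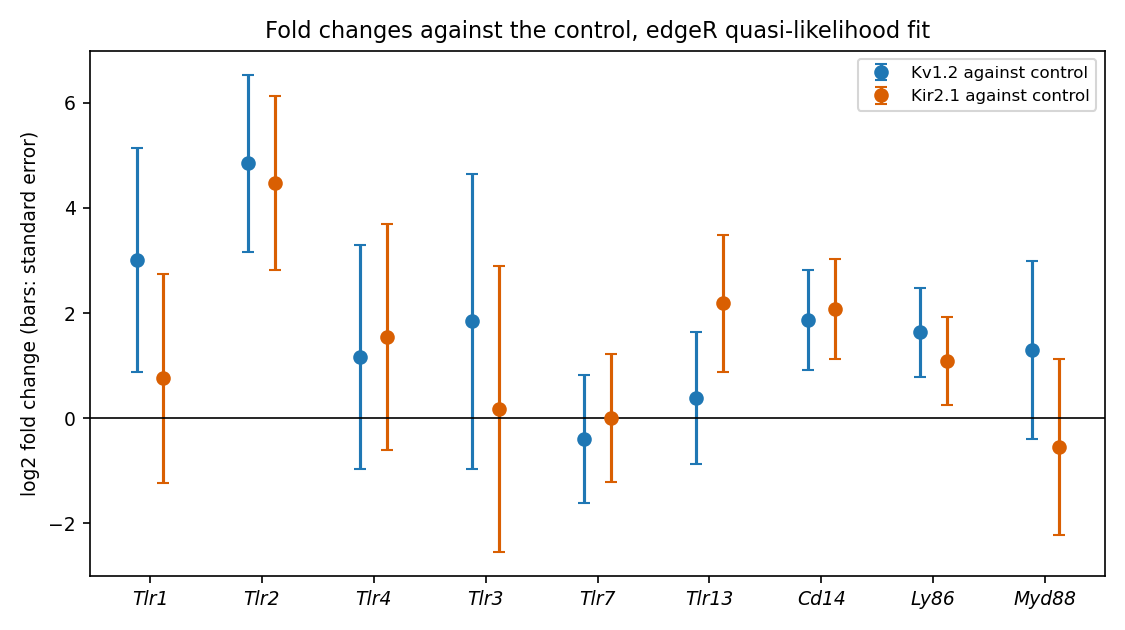
Log2 fold change against the control (y axis) of the 9 genes tested, from edgeR's quasi-likelihood fit with TMM scaling, for the Kv1.2 and Kir2.1 groups, with bars for the standard error (n = 2 libraries per group). Tlr2 is at 4.85 and 4.47, and Tlr7 at −0.40 and 0.0056.

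Between the channel groups, the log2 fold changes of Kir2.1 over Kv1.2 ran from −2.25 (SE 2.07) for Tlr1 (−9.49 without Kir2.1 replicate 2 and −1.25 without Kir2.1 replicate 1) to 1.80 for Tlr13, with 0.21 (SE 0.92) for Cd14, −0.38 (SE 1.44) for Tlr2 and −0.54 (SE 0.82) for Ly86. Tlr1, Tlr3, Ly86 and Myd88 had both Kir2.1 libraries below both Kv1.2 libraries, 4 of 9 against 16.7% of all genes, and Tlr13 had them above, 1 of 9 against 21.5%. The folds of 4 of 9 were above 0, against 53.4% of all genes. None passed the test, and the smallest adjusted p was 0.834 (edgeR quasi-likelihood).

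Some members were at hand in 1 replicate of a group and nearly missing in the other. In the control, 3 of the 8 members with at least 10 CPM in one library were under 1 CPM in the other (Tlr3, Tlr4 and Myd88), against 20.8% of all such genes. The Kv1.2 group had 0 of 9, against 25%, and the Kir2.1 group had 2 of 9 (Tlr1 and Tlr3), against 23.6%. Such splits were thus common among all genes as well. Tlr1, with 0.0906 and 30.2 CPM in the Kir2.1 libraries, differed 333.9-fold between them. By contrast, Ly86 differed 1.14-fold between the Kv1.2 libraries and 1.43-fold between the Kir2.1 libraries.

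The make-up of the receptor transcripts was compared per length within each library, over the 8 Toll-like receptors of the deposited FPKM table. The surface receptors Tlr1, Tlr2, Tlr4 and Tlr6 held 15.6% and 18.3% of the summed receptor FPKM in the control, 60.5% and 61.7% in Kv1.2 and 35.6% and 46.1% in Kir2.1 libraries. The groups did not overlap in this share, and the endosomal receptors Tlr3, Tlr7, Tlr12 and Tlr13 held the rest. The endosomal receptor Tlr8 is not among the 8, so its 248 counts in Kir2.1 replicate 1 are left out of that library's share. The surface share of control replicate 2 rests on 90 counts of Tlr1, 5 of Tlr6, 2 of Tlr2 and 1 of Tlr4. Tlr7 led in control replicate 1 with 55.1 FPKM, and Tlr3 led in control replicate 2 with 6.59 FPKM. In the channel libraries the leading receptors were Tlr2 with 42.3 FPKM and Tlr1 with 29.3 FPKM in the Kv1.2 group, and Tlr7 with 26.6 FPKM and Tlr2 with 33.4 FPKM in the Kir2.1 group. The receptors summed to 70.1 and 19.05 FPKM in control and 80.5 to 124.6 FPKM in the channel libraries. The split into surface and endosomal receptors was chosen after the values were seen and is given with no test.

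**Figure D3:**
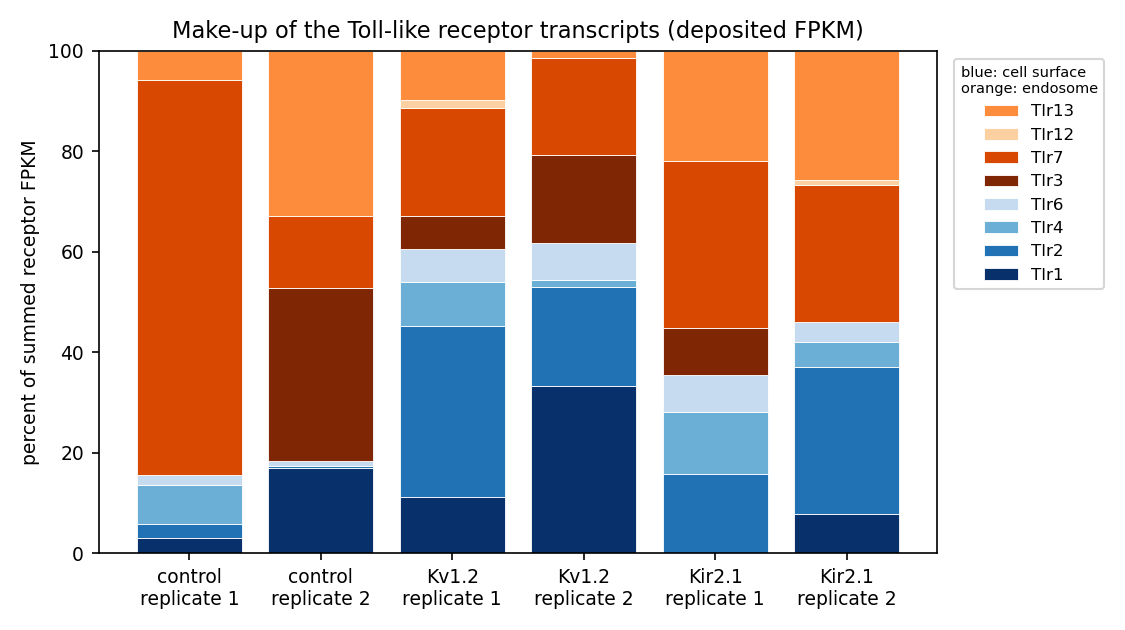
Share of each Toll-like receptor in the summed receptor FPKM (percent) of each of the 6 libraries, with surface receptors in blue and endosomal receptors in orange. Surface receptors make up 15.6% and 18.3% in the control and 35.6% to 61.7% in the channel libraries.

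Because the microglia share of the counts differed between the libraries, each member was also set against the microglia markers. Ly86 had 41.8 and 50.3 counts per 1000 microglia marker counts in control, 46.6 and 43.9 in Kv1.2 and 52.6 and 37.7 in Kir2.1 libraries. These values overlapped between all groups, and the log2 ratio of the group means over both channel groups was −0.03 (exact permutation p = 0.933, two-sided, 4 against 2 libraries). The summed members gave 50.7 and 63.5 per 1000 in control, 56.7 and 51.4 in Kv1.2 and 66.4 and 49.4 in Kir2.1 libraries, with a log2 ratio of −0.03 (exact permutation p = 1). Here the smallest p that the permutations can give is 0.133, and with 2 against 2 libraries it is 0.333.

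Tlr2 lay above both controls on this scale as well, and its log2 fold over both groups with microglia scaling was 3.76 (edgeR quasi-likelihood adjusted p = 0.290). It had 0.0863 and 0.0258 counts per 1000 microglia marker counts in control, 1.07 and 0.469 in Kv1.2 and 0.678 and 0.900 in Kir2.1 libraries, a log2 ratio of 3.80 over both groups, with the smallest p the permutations can give (exact permutation p = 0.133, higher in 4 of 4 libraries). It was the only 1 of 9 members with all 4 channel libraries above both controls, against 2.16% of all genes tested, and the only one in the Kv1.2 group, against 4.76%. Cd14 had 3.90 and 4.17 in control, 5.78 and 3.94 in Kv1.2 and 7.66 and 7.79 in Kir2.1 libraries. Cd14 was thus above both controls in the Kir2.1 group alone (log2 ratio 0.94, exact permutation p = 0.333), where 2 of 9 members were, against 6.8% of all genes. Tlr7 lay below both controls in the Kv1.2 group, with 0.919 and 0.620 against 3.24 and 1.19 in the control (log2 ratio −1.53, exact permutation p = 0.333), 1 of 9 members against 47.3% of all genes on this scale. Below both controls were 0 of 9 in the Kir2.1 group, against 31.8%, and 0 of 9 in all 4 channel libraries, against 26.5%. Between the channel groups, Tlr7, Tlr13 and Cd14 were higher in both Kir2.1 libraries (3 of 9, against 27.3%) and Tlr1 and Myd88 lower (2 of 9, against 9.24%). The part of the border-associated macrophage markers of Kir2.1 replicate 1 in these values was not tested.

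**Figure D4:**
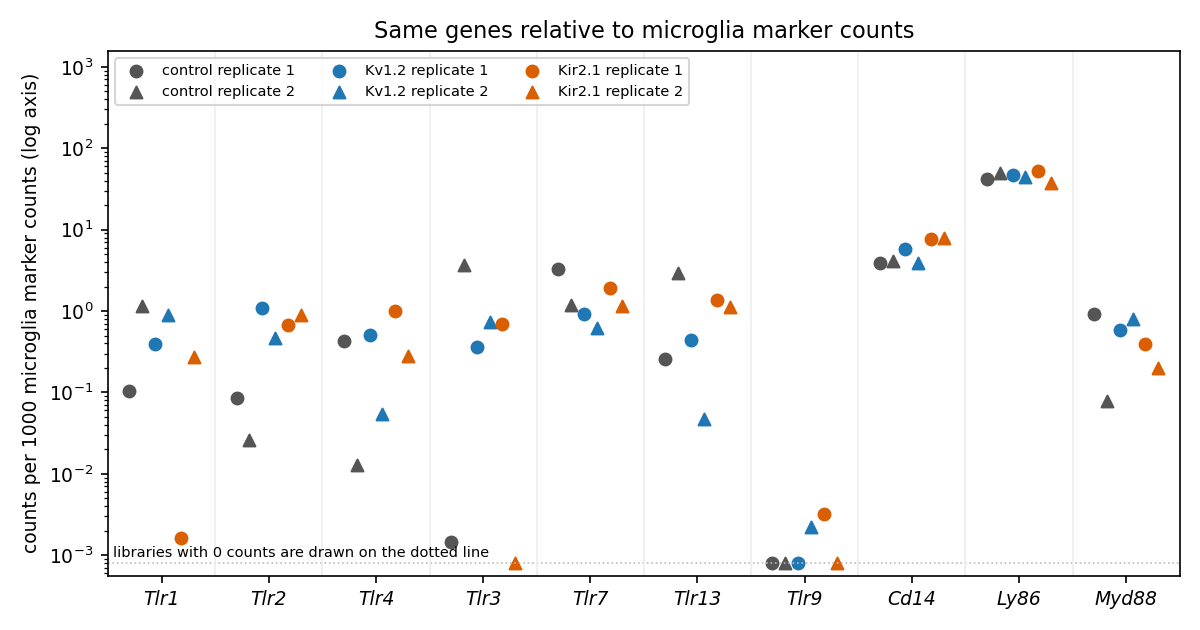
Counts of each of the 10 genes per 1000 counts of the 20 microglia markers (log axis), with 1 point per library. Ly86 lies between 37.7 and 52.6 in all libraries, while Tlr2 is at or below 0.0863 in the controls and at or above 0.469 in the channel libraries.

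The other genes of the pathway were taken from fixed lists. Of the other Toll-like receptors, Tlr5, Tlr8 and Tlr11 did not reach the minimum, and Tlr8 had 22.5 CPM in Kir2.1 replicate 1 and under 1 CPM in all others (named after its values were seen). Tlr6, the second partner of Tlr2, had 5.28 and 0.599 CPM in the control and 17.1 to 30.4 CPM in the channel libraries, all above the controls, with a log2 fold change over both groups of 2.97 (SE 1.77, edgeR quasi-likelihood adjusted p = 0.508). Like Tlr2, it was above both controls per microglia marker count as well, with 0.0763 and 0.0645 per 1000 in the control and 0.153 to 0.397 in the channel libraries. On each scale Tlr6 was 1 of 2 tested of this list, against 8.52% of all genes by CPM and 2.16% per microglia marker count. Since control replicate 2 was under 1 CPM, Tlr6 met the count minimum of 2 libraries only with channel libraries, where it was high. Tlr12, an endosomal receptor for profilin, had 0 counts in the control and 77, 0, 1 and 34 counts in the channel libraries.

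Of 12 co-receptors and trafficking genes, 11 were tested, and all 11 had folds above 0 over both groups with a median of 1.69 on the log2 scale (−0.19 for all genes tested), but 0 passed an adjusted p of 0.05 by edgeR's quasi-likelihood test. The microglia list moved with them, with 19 of 20 above 0 and a median of 1.17. Per microglia marker count, 2 of the 11 (Cd180 and Slc15a4) had all 4 channel libraries above both controls, against 2.16% of all genes and 3 of 20 microglia markers. Cd180 and Slc15a4 were under 1 CPM in control replicate 2 and met the count minimum only with channel libraries, where they were high. Cd36, a scavenger receptor that assists Tlr2, had 3 and 0 counts in control, 1436 and 648 in Kv1.2 and 587 and 0 in Kir2.1 libraries. Kir2.1 replicate 2 thus held none, like control replicate 2, and Cd36 passed the count minimum through channel libraries alone. Over both channel groups, the log2 fold was 1.77 (SE 0.78) for Ctsb and 1.51 (SE 0.75) for Lgmn, proteases of the endosome and lysosome, while Unc93b1, which carries the endosomal receptors from the endoplasmic reticulum, had 1.91 (SE 0.89).

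Downstream of the receptors the folds had both signs. Among 14 adaptors and kinases tested, 8 had folds above 0 and 6 below, with a median of 0.61 over both groups, and 0 passed an adjusted p of 0.05 by edgeR's quasi-likelihood test. Pik3ap1, an adaptor that links Toll-like receptors to phosphoinositide kinase, had 0.996 and 11.4 CPM in the control and 55.4 to 202.8 CPM in the channel libraries (log2 fold change 4.55, SE 1.32, unadjusted p = 0.0105, adjusted p = 0.210 by edgeR's quasi-likelihood test). Per 1000 microglia marker counts Pik3ap1 overlapped between the groups, with 0.0144 and 1.23 in the control and 0.498 to 2.33 in the channel libraries. Irak1, a kinase recruited by Myd88, had 70.6 and 27.3 CPM in the control and 1.87 to 25.0 CPM in the channel libraries, all below the controls. Its log2 fold change was −2.59 (SE 1.19, edgeR quasi-likelihood adjusted p = 0.406). By CPM, 1 of 14 lay below both controls in all channel libraries, against 13.8% of all genes, and 2 of 14 above, against 8.52%. Ticam2, an adaptor of Tlr4, had −3.42 (SE 2.08), with 30.7 and 0.120 CPM in the control and 0.181 to 11.2 CPM in the channel libraries. The controls thus enclosed all channel libraries of Ticam2. Tab3, which acts with the kinase of Map3k7, had 0 counts in both controls and in Kv1.2 replicate 1.

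All 8 transcription factors were tested, and 7 had folds above 0, with a median of 1.29, while 0 passed an adjusted p of 0.05 by the same test. Nfkb1, a subunit of NF-kappaB, had 12.9 and 0.838 CPM in the control and 23.2 to 86.7 CPM in the channel libraries (log2 fold change 2.71, SE 1.56, edgeR quasi-likelihood adjusted p = 0.495). Irf3 had 5.68 and 5.87 CPM in the control and 14.3 to 28.3 CPM in the channel libraries, with a log2 fold change of 1.80 (SE 1.52). Per 1000 microglia marker counts, Irf3 had 0.0820 and 0.632 in the control, and its channel libraries (0.120 to 0.389) lay between them, while those of Nfkb1 (0.209 to 0.774) lay above both controls (0.187 and 0.0903). By CPM, 2 of 8 had all channel libraries above both controls, against 8.52% of all genes, and per microglia marker count 1 of 8, against 2.16%. Nfkb1 is in both counts, and control replicate 2 rested on 7 reads of it. It was under 1 CPM there and met the count minimum only with channel libraries, where it was high. The log2 fold changes of Rel and Irf7 were 1.98 (SE 1.77) and 2.82 (SE 2.77).

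Of the negative regulators, 5 of 7 tested had folds above 0, 0 passed an adjusted p of 0.05 by edgeR's quasi-likelihood test, and 0 of 7 lay above both controls in all channel libraries, against 8.52% of all genes, or below them, against 13.8%. Nfkbia, which holds NF-kappaB in the cytoplasm, had a log2 fold change of 1.18 (SE 1.24), Irak3 had −3.01 (SE 2.43) and Nfkbiz 2.32 (SE 2.54). The controls of Irak3 were themselves apart, at 21.3 and 0.599 CPM, against 0 to 9.85 CPM in the channel libraries. Tnip1 had 25 counts or fewer in every library.

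Of 16 target genes of the pathway 9 were tested, 8 with folds above 0 over both groups and a median of 1.69, and 0 passed an adjusted p of 0.05 by edgeR's quasi-likelihood test. Ccl4, a chemokine, had 22.6 and 0 CPM in control, 354.6 and 195.0 CPM in Kv1.2 and 125.0 and 303.3 CPM in Kir2.1 libraries. It was 1 of 9 targets with all channel libraries above the controls, against 8.52% of all genes (log2 fold change 4.42, SE 1.93, adjusted p = 0.384 by the same test). With 0 counts in control replicate 2, Ccl4 met the count minimum only with channel libraries, where it was high. Ccl2 had 64.0 and 11.1 CPM in control, 768.0 and 227.6 CPM in Kv1.2 and 48.4 and 165.5 CPM in Kir2.1 libraries, so that only the Kv1.2 group lay above both controls. The same held for Ccl5, with 37.4 and 5.63 CPM in control, 207.3 and 200.5 CPM in Kv1.2 and 32.2 and 26.4 CPM in Kir2.1 libraries. In the Kv1.2 group, 4 of 9 targets lay above both controls by CPM, against 19.3% of all genes. Per microglia marker count, 4 of 9 lay above both controls there, against 4.76% and 6 of 20 microglia markers. Below were 1 of 9, against 47.3% and 11 of 20. Cxcl10, 1 of the 4 above, had 0 counts in control replicate 2 and met the count minimum only with channel libraries. On this scale the Kir2.1 group had 1 of 9 above, against 6.8%, and 1 of 9 below, against 31.8%. Over all 4 channel libraries these were also 1 of 9 and 1 of 9, against 2.16% and 26.5%. Il1b had 0 counts in 4 libraries, and 80 and 165 counts in Kv1.2 replicate 1 and Kir2.1 replicate 2.

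The genes whose levels followed the summed members most closely over the 6 libraries, by the root mean square difference of centred log2 CPM, were Lyz2 (0.167), Lgmn (0.174), Ube2d1 (0.181), Ctsl (0.184) and Lamp2 (0.188). Lyz2 encodes lysozyme of macrophages, Lgmn and Ctsl lysosomal proteases and Lamp2 a lysosomal membrane protein. Lyz2 had 2174 and 360.5 CPM in control, 4053 and 4013 CPM in Kv1.2 and 2097 and 2642 CPM in Kir2.1 libraries. The sum is mostly Ly86, so this likeness describes that gene more than the receptors.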

How the data were processed

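Unnormalized read counts for each gene were deposited by the authors, with FPKM values scaled to the TMM library size. By the study's methods and processing notes, reads were trimmed, aligned to GRCm38 with STAR 2.7.0f, filtered with SAMtools 1.9 for mapping quality and multi-mapping, and counted with Subread 1.6.4. Strand in the counting and the edgeR settings behind the FPKM are not given in the sources used here. Sources differ in the reads (single of 75 or paired of 100 bases). Amplified reads are not independent molecules, so intervals and floors (3 counts) cover counting error only. Deposited tables of the authors' comparisons hold fold changes and p-values per gene, and they and the further normalized tables were not used.

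The software was edgeR 4.0.16, DESeq2 1.42.0 and limma 3.58.1 under R 4.3.3, and Python 3.11.15 with scipy 1.17.1. The 12275 genes that reached 1 CPM in 2 or more libraries were fitted in all 6 libraries with TMM scaling and tested with edgeR's quasi-likelihood test for 4 contrasts, with Benjamini-Hochberg adjustment over all genes tested and a threshold of 0.05. The standard error (SE), the absolute log2 fold over the root of the F statistic, restates the test. Ratios to the microglia list were tested by exact permutation of libraries, two-sided. The steps were tested on simulated data. All 10 members are named, with up to 4 genes of each pathway list by the smallest p over both channel groups and the 5 genes nearest to the summed members. Further genes (Tlr5, Tlr8, Tlr11, Cxcl10, Kcna2, Kcnj2, Dcx, Slc1a3, Cnp, Gm45542, Acaa1a) were named as checks. Members and lists were chosen with earlier results of these data known. Coordinates are from GENCODE M21 and promoters from RefSeq. Alternatives were another tool (DESeq2), other scalings (RLE, or library size alone), other minimums (none, or filterByExpr), a likelihood ratio test, fits of the compared groups only, a replicate block, each library left out, and, chosen after seeing the data, scaling to the microglia list.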

Additional observations from a re-analysis of the deposited data

How the results depend on the processing

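The folds of Tlr2, Cd14 and Ly86 against the control stayed above 0 under the alternatives run, except that of Ly86 with microglia scaling, which was chosen after seeing the data. Tlr9 and the low control libraries of Tlr2, Tlr3, Tlr4 and Myd88 rest on few reads, which limits the precision of those folds. The cause of the changes below was not tested.

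With DESeq2, the number of genes past the threshold was 1286 in the Kv1.2 group, 964 in the Kir2.1 group, 1228 over both and 627 between the channel groups, with 1 member (Tlr2) in each of the first 3, where edgeR's quasi-likelihood test called 0, 0, 3 and 0 genes. Without a count minimum the genes numbered 138, 122, 263 and 27, with 1 member (Ly86) in the Kv1.2 group and 1 over both, and with the likelihood ratio test 723, 225, 1097 and 68. With microglia scaling there were 78, 26 and 1007 genes in the comparisons with the control. Leaving out 1 library gave 0 to 3 genes in the Kv1.2 group, 0 to 11 in the Kir2.1 group and 0 to 37 over both, the highest counts without control replicate 1, and 0 members throughout. The replicate numbers did not pair the samples (correlations of deviations 0.013, −0.040 and −0.0028), and a replicate block gave 9 genes over both groups and 0 members, with Tlr7 at 0.20 in the Kv1.2 group and 0.51 over both, Tlr1 at −0.59 and Myd88 at 0.22 in the Kir2.1 group, and Tlr2 at 0.17 between the channel groups.

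The log2 fold changes that turned sign with microglia scaling were those of Tlr3 (−1.76), Tlr13 (−2.68) and Ly86 (−0.025) in the Kv1.2 group, of Tlr1 (−2.21), Tlr3 (−2.40), Tlr7 (−0.52), Tlr13 (−0.34) and Ly86 (−0.028) in the Kir2.1 group, of Tlr1 (−1.10), Tlr3 (−2.08), Tlr13 (−1.51), Ly86 (−0.027) and Myd88 (−0.15) over both groups, and of Tlr2 (0.031) between the channel groups. Tlr7 in the Kir2.1 group was also below 0 with DESeq2 (−0.028), RLE scaling (−0.028) and a fit of the compared groups only (−0.00029). The log2 ratio of the summed members to the microglia markers ran from −0.23 to 0.091 in the Kv1.2 group, −0.21 to 0.22 in the Kir2.1 group, −0.18 to 0.14 over both and −0.13 to 0.30 between the channel groups when 1 library was left out. As a difference of list means of log2 CPM it was 0.83, 0.03, 0.43 and −0.80.

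Leaving out 1 library also turned signs in the Kv1.2 group for Tlr4 (−1.29 to 7.90), Tlr7 (−1.42 to 2.91) and Tlr13 (−2.08 to 1.23), in the Kir2.1 group for Tlr1 (−6.47 to 1.74), Tlr3 (−10.6 to 7.43), Tlr7 (−0.99 to 3.33) and Myd88 (−1.60 to 4.83), over both groups for Tlr1 (−1.73 to 2.36), Tlr3 (−4.40 to 8.24), Tlr7 (−1.20 to 3.12) and Myd88 (−0.68 to 5.75), and between the channel groups for Tlr2 (−1.27 to 0.41), Tlr4 (−0.48 to 2.84) and Cd14 (−0.42 to 0.65). In these fits the lone sample of a group is assumed to vary like the others.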
